A study of Mus musculus with 6 samples.

Results

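The genes described here are the 4 members of the ID family (Id1, Id2, Id3 and Id4) and the 3 genes for E proteins (Tcf3, Tcf4 and Tcf12), taken by gene symbol from the bulk RNA-seq gene count tables of mouse embryonic stem cells (mESCs) and of cardiac precursor cell cultures (CPCCs). All 7 are listed in both tables, among 16279 genes in either table, 13001 in both and 12471 that were tested. Each cell type had 3 libraries, made from polyA-selected RNA. The mESCs were male F1 cells of the strain cross C57BL/6 x CAST/EiJ, with a C57BL/6J mother and a CAST/EiJ father, as single-cell clones of blastocyst-derived lines. They were kept in 2i medium, which held serum, LIF, the MEK inhibitor PD0325901 and the GSK3 inhibitor CHIR99021. The CPCCs carried the same alleles and were derived from the same clones, through hanging drops and embryoid bodies with ascorbic acid, followed by adherent culture with EGF and Fgf2. These cultures hold several cell types, so a level is a mean over a mixture, and a larger share of cells with a transcript cannot be told apart from more RNA per cell. Cell type and medium differ together between the groups and cannot be told apart either.

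E proteins are broadly expressed basic helix-loop-helix (bHLH) transcription factors that bind the E-box, the sequence CANNTG, as homodimers or together with tissue-restricted bHLH factors such as those of the MyoD, neurogenin, Twist and Hand families. ID proteins share the helix-loop-helix that forms dimers but lack the basic region that touches DNA, so a dimer of an ID protein with an E protein does not bind an E-box. ID genes are well-known direct targets of BMP signalling through SMAD1 and SMAD5, and in mESCs ID proteins are known for holding back differentiation downstream of BMP.

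The mESC libraries (S01, S02 and S03) held between 6442639 and 6907330 counts, the CPCC libraries (S04, S05 and S06) between 8468819 and 11436062. Levels are given as CPM, the normalized count on a scale of 1000000 counts a library, on which 3 counts correspond to between 0.298 and 0.463. CPM values are normalized by TMM, the scaling used in edgeR. Every member had at least 20 counts in every library. The cell types were compared by edgeR's quasi-likelihood test, and a gene was called at a Benjamini-Hochberg adjusted p under 0.05. By that rule 61.4% of the 12471 genes tested were called, 31.7% as higher and 29.7% as lower in CPCCs, and the median log2 fold change over all genes tested was 0.03. The p-values measure the spread between these libraries only. All 10 pluripotency markers fell in CPCCs, from summed levels between 5646 and 5893 CPM in mESCs to between 143.5 and 307.8 CPM. Of 11 cardiac progenitor markers 4 of the 6 tested were called higher and 4 more are listed only for CPCCs, but Nkx2-5 was at 1.59, 0 and 0.917 CPM in S04, S05 and S06 and Tbx5 is not listed for CPCCs, so these defining markers were at or near 0. Library S04 was the deepest and stood apart from the other CPCC libraries in having the lowest summed pluripotency markers and the highest summed cardiac markers.

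All 7 members were higher in CPCCs than in mESCs, and all 7 passed the test, where 31.7% of all genes tested were called higher. Id4 and Tcf3 passed it narrowly and depended on single libraries. In all 7 the 3 CPCC libraries lay above the 3 mESC libraries, a pattern seen in 35.3% of all genes tested. Both the inhibitors and the factors they inhibit were therefore higher in CPCCs. The largest differences were those of Id3 (24.3-fold) and Id1 (10.2-fold), and the smallest was that of Tcf3 (1.56-fold). The median log2 fold change was 2.50 over the 4 ID genes and 1.59 over the 3 E protein genes.

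**Figure D1:**
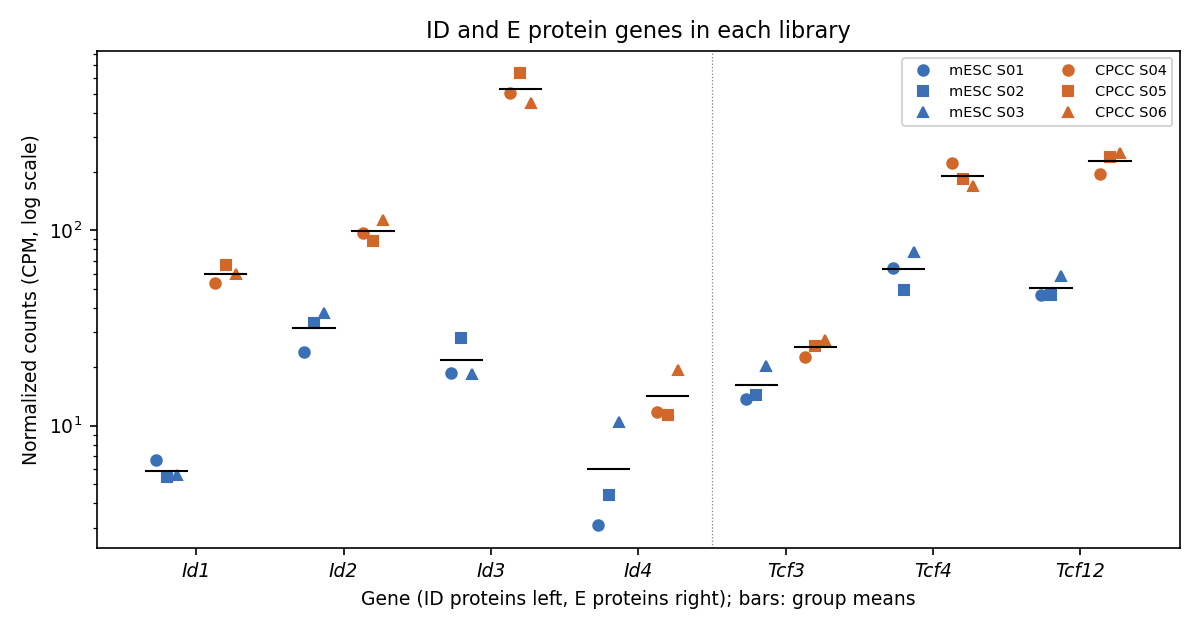
Normalized counts (CPM, log scale) of the 4 ID genes and 3 E protein genes in each of the 6 libraries, with mESC libraries in blue, CPCC libraries in orange and black bars for group means. The CPCC points lie above the mESC points for every gene, with the widest gap for Id3 (21.8 against 530.3 CPM) and narrow gaps for Id4 and Tcf3.

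Id3 (chr4:136143822-136145393, plus strand, GRCm38) measured 18.7, 28.2 and 18.4 CPM in S01, S02 and S03, the mESC libraries. Its CPCC values, for S04, S05 and S06, were 506, 637 and 447 CPM. The groups were far apart, and S02 was the highest mESC library as S05 was the highest CPCC library. The means were 21.8 ± 5.59 CPM in mESCs and 530.3 ± 97.1 CPM in CPCCs (SD, n = 3 each), a log2 fold change of 4.60 with a standard error of 0.25 (adjusted p = 2.32e-06, edgeR with Benjamini-Hochberg adjustment). Of the 12471 genes tested, 319 rose more.

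Id1 (chr2:152736251-152737411, plus strand), the member most often used as a readout of BMP signalling, was a low transcript in mESCs, with 6.64, 5.44 and 5.56 CPM from 43, 37 and 38 counts. In CPCCs it had 53.5, 66.5 and 59.9 CPM. The groups did not overlap, and the libraries of each group lay close together. The log2 fold change was 3.35 with a standard error of 0.22 (adjusted p = 5.10e-06, edgeR), and 741 genes rose more.

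Id2 (chr12:25093799-25096093, minus strand), which is known for binding E proteins in lymphoid and neural precursors, was the ID gene with the highest mean CPM in mESCs. Its mESC values of 23.8, 33.5 and 37.9 CPM compare with 97.3, 87.9 and 113.1 CPM for CPCCs. The lowest CPCC library was still above the highest mESC library. Means were 31.7 ± 7.22 and 99.4 ± 12.7 CPM (SD, n = 3 each), with a log2 fold change of 1.65, a standard error of 0.22 and an adjusted p of 0.000214 (edgeR).

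Id4 (chr13:48261427-48264037, plus strand), a member best known from neural and mammary progenitors, was spread most widely. It stood at 3.09, 4.41 and 10.4 CPM in mESCs, against 11.7, 11.4 and 19.3 CPM among the CPCC libraries. The groups were separated only by the gap between 10.4 CPM in S03 and 11.4 CPM in S05. The log2 fold change was 1.24 with a standard error of 0.47 (adjusted p = 0.0447, edgeR with Benjamini-Hochberg adjustment), and the call was lost in 4 of the 6 fits that left out 1 library each (S01, S02, S05 or S06). Without S01 the value was 0.93 (adjusted p = 0.134) and without S03 it was 1.91 (adjusted p = 0.00779). The start of Id4 overlaps the antisense gene A330033J07Rik (chr13:48044231-48262624, minus strand), which is listed only for CPCCs, at 2.68, 1.46 and 0.573 CPM. Whether the counting used strand is not given in the sources used here, so reads from that overlap cannot be told apart and the value of Id4 is uncertain.

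The bases just before Id2, Id3 and Id4 are shown as a description of their sequence, and their part in the changes was not tested. Windows of 250 bases upstream of the transcription start were taken from RefSeq (GRCm38.p6), which gave 5 of the 7 members in the table used. They are chr4:136143572-136143821 (plus strand) for Id3, chr12:25096093-25096342 (minus strand) for Id2 and chr13:48260866-48261115 (plus strand) for Id4. Each is written 5′ to 3′ along the gene's own strand, with capitals for matches on either strand, so that a motif or its reverse complement is marked. The motifs were GTCTG, which SMAD4 is known to bind, the SMAD motif rich in G and C, which reads GGCGCC, the CCAAT box and, in Id2, the E-box given above.
Id3: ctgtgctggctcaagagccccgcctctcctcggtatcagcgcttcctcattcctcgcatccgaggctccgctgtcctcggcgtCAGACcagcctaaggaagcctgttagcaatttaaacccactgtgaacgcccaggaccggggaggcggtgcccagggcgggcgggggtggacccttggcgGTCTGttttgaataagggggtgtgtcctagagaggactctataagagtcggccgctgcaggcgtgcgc
Id2: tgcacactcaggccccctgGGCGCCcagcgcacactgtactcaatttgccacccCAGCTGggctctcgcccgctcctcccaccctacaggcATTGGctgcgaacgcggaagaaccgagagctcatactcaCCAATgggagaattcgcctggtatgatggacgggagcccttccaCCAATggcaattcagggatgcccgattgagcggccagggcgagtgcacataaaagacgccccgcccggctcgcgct
Id4: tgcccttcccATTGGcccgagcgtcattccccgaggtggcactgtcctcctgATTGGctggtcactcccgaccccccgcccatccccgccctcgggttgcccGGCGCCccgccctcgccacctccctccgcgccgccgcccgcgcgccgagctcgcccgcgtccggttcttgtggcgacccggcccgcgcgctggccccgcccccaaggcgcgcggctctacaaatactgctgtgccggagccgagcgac

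The Id3 window held 2 matches to GTCTG, beginning 167 and 68 bases before the start, and no match to the E-box. The Id2 window held an E-box, CAGCTG, beginning 196 bases before the start, a GGCGCC at 231 bases and CCAAT boxes at 159, 120 and 76 bases. The Id4 window held a GGCGCC at 148 bases and CCAAT boxes at 240 and 198 bases. Over 32851 windows of the same length, 66.2% held an E-box, 42.2% GTCTG, 33.8% CCAAT, 12.4% the box TATAAA and 9.59% GGCGCC. None of the 3 ID windows held TATAAA. Among the E protein genes, the Tcf3 window held 1 E-box, CACTTG, 54 bases before the start, and 2 of the 3 annotated starts of Tcf12 held 1 each. One of these Tcf12 windows also held a match to GTCTG, on the other strand and 50 bases before the start, and the window of the remaining start held 2 CCAAT boxes. Id1 and Tcf4 were the members without a window. Starts differ between annotations. In GENCODE M21, Id3 starts at 136143497 and Id2 at 25097140, so the windows of these genes lie inside them there. The Id4 window ends at 48261115, before the GENCODE M21 start at 48261228 and the count table's start at 48261427. A match to so short a motif is a description of the letters only.

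The 3 E protein genes rose by between 0.64 and 2.16 on the log2 scale, a range that overlaps that of the ID genes. Tcf12 (chr9:71844252-72111820, minus strand), which codes for HEB, had 46.8, 46.9 and 58.5 CPM in mESCs. In CPCCs it had 195.0, 237.0 and 249.8 CPM. All CPCC libraries were more than 100 CPM above all mESC libraries, and S04 was the lowest of the CPCC libraries. The log2 fold change was 2.16 with a standard error of 0.18 (adjusted p = 1.77e-05, edgeR).

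Tcf4 (chr18:69344492-69687968, plus strand), which codes for E2-2, stood at 64.0, 49.4 and 77.4 CPM in mESCs, whereas the CPCC libraries gave 222.3, 182.6 and 168.1 CPM. The groups did not overlap, and S04, the lowest CPCC library for Tcf12, was the highest for Tcf4. Its log2 fold change was 1.59 with a standard error of 0.21 (adjusted p = 0.000215, edgeR with Benjamini-Hochberg adjustment).

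Tcf3 (chr10:80409165-80433654, minus strand), which codes for the E2A proteins E12 and E47, stood at 13.7, 14.4 and 20.2 CPM in mESCs, compared with 22.5, 25.7 and 27.4 CPM for CPCCs. The groups were separated by the small gap between S03 and S04. Means were 16.1 ± 3.54 and 25.2 ± 2.50 CPM (SD, n = 3 each), a log2 fold change of 0.64 with a standard error of 0.24 (adjusted p = 0.0435, edgeR). The call was lost in 4 of the 6 fits without 1 library (S01, S02, S05 or S06), with the lowest value of 0.54 without S01 (adjusted p = 0.144), and 4331 genes rose more than Tcf3. Without S04, the library that stood apart, all 7 members stayed called, with log2 fold changes from 0.73 for Tcf3 to 4.65 for Id3.

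Levels of different genes were compared as CPM per kilobase of the longest coding transcript in GENCODE M21. On this per-kilobase scale the order in mESCs was Id3 (17.0 ± 4.38), Id2 (16.1 ± 3.66), Tcf12 (8.06 ± 1.07), Tcf4 (7.41 ± 1.63), Tcf3 (5.46 ± 1.20), Id1 (5.07 ± 0.571) and Id4 (1.55 ± 1.01; SD, n = 3 each). Id3 and Id2 overlapped over the libraries, as did each neighbouring pair from Tcf12 down to Id1, while Id2 lay above Tcf12 and Id1 above Id4 in every library. In CPCCs the per-kilobase order was Id3 (415 ± 76.0), Id1 (51.7 ± 5.59), Id2 (50.5 ± 6.47), Tcf12 (36.1 ± 4.55), Tcf4 (22.3 ± 3.27), Tcf3 (8.54 ± 0.849) and Id4 (3.67 ± 1.15). Only Id1 and Id2 overlapped as neighbours there. On this scale Id1 stood last but one in mESCs and second in CPCCs. The order depends on the length used, a choice made after the data were seen. Per kilobase of the mean coding transcript, Id1 in CPCCs (57.3) lay below Id3 (415), Tcf4 (101.5), Tcf12 (81.5) and Id2 (71.1). Per kilobase of the mean coding transcript, Tcf4 lay above Tcf12 in both cell types (33.8 against 18.2 in mESCs and 101.5 against 81.5 in CPCCs), and Tcf4 then also lay above Id3 (17.0) in mESCs. Per kilobase of merged exons, Tcf3 was the highest E protein gene in mESCs (3.99, against 3.27 for Tcf12 and 2.32 for Tcf4).

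**Figure D2:**
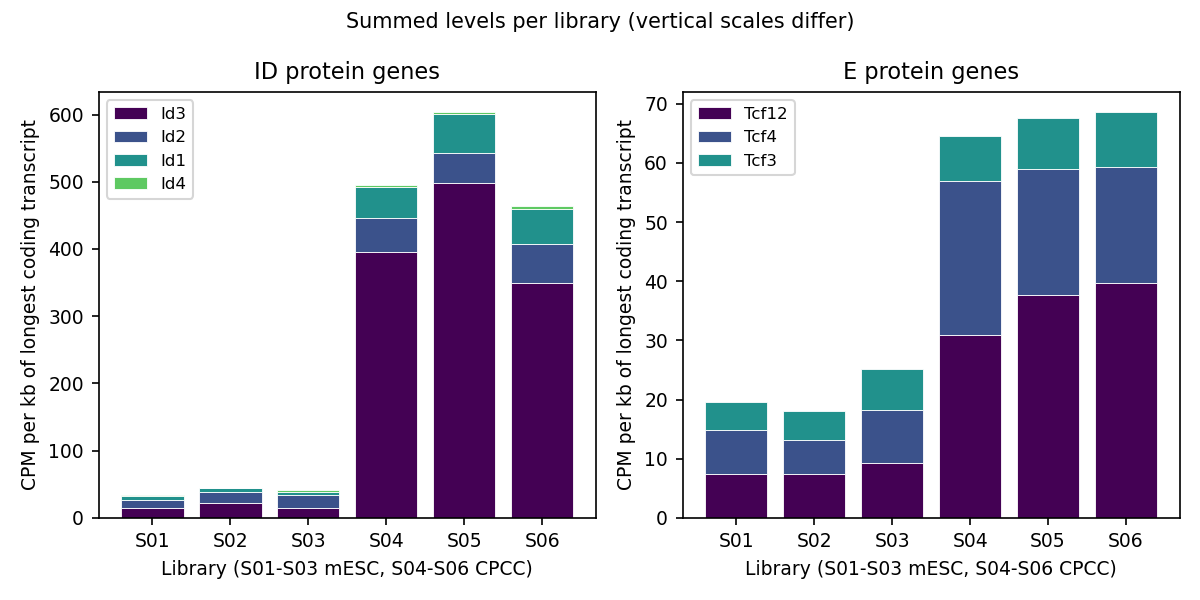
Stacked levels of the ID genes (left) and E protein genes (right) in each library, in CPM per kilobase of the longest coding transcript, on axes that start at 0 and differ in scale. Id3 makes up between 75.4% and 82.6% of the ID bar in the CPCC libraries and between 35.0% and 49.1% in the mESC libraries.

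The make-up of the ID pool shifted towards Id3. On the per-kilobase scale Id3 held 44.0%, 49.1% and 35.0% of the summed ID level of the mESC libraries (S01, S02, S03), but 80.1%, 82.6% and 75.4% of that of the CPCC libraries (S04, S05, S06). Id2 held 36.4%, 37.9% and 46.8% in mESCs and 9.99%, 7.40% and 12.4% in CPCCs. For both genes the shares of the cell types did not overlap. Id1 held between 10.4% and 17.2% of the pool in mESCs and between 9.32% and 11.1% in CPCCs, ranges that overlapped although its own level rose 10.2-fold. In the E protein pool Tcf12 went from between 36.9% and 41.2% to between 48.0% and 57.9%, and Tcf3 from between 23.8% and 27.2% to between 11.8% and 13.5%. The share of Tcf4 overlapped between the cell types, from 31.8% to 38.1% in mESCs and from 28.6% to 40.2% in CPCCs.

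Set against each other, the summed ID transcripts stood higher relative to the summed E protein transcripts in CPCCs than in mESCs. The per-kilobase ratio of ID to E protein transcripts was 1.70, 2.49 and 1.64 in mESC libraries, compared with 7.67, 8.92 and 6.77 for CPCC libraries. The groups did not overlap. On the log2 scale the mean ratio was 0.93 ± 0.33 in mESCs and 2.95 ± 0.20 in CPCCs (SD, n = 3 each), a difference of 2.02, given without a test because the members were chosen with results known. The difference depended most on Id3. With Id3 left out of the sum the difference was 0.54 on the log2 scale, and with Id2 left out it was 2.62. The ratio itself depends on the length used, since per kilobase of the mean coding transcript it was 0.689, 1.07 and 0.706 in mESCs and 2.64, 3.27 and 2.60 in CPCCs, but the log2 difference between the cell types was 1.81 on that scale. With summed CPM and no length scaling the log2 ratio was -1.25, -0.63 and -1.11 in mESCs and 0.61, 0.85 and 0.52 in CPCCs. All of these are ratios of transcripts, and protein levels were not measured in these tables.

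**Figure D3:**
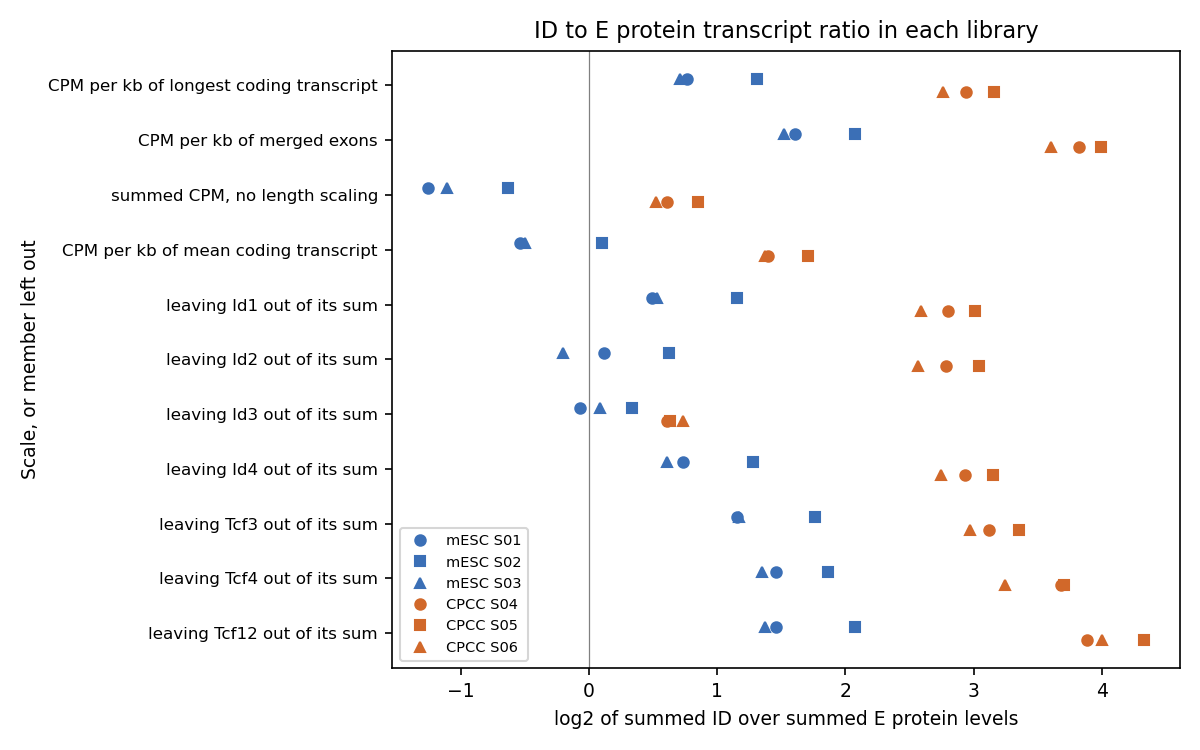
Log2 ratio of summed ID to summed E protein transcripts in each library, with mESC libraries in blue and CPCC libraries in orange, for 4 scales (upper rows) and with each member left out of its sum on the scale of the longest coding transcript (lower rows). The CPCC libraries lie to the right in every row, and the gap is narrowest with Id3 left out, at a mean difference of 0.54.

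Tissue-restricted bHLH factors pair with E proteins. Of 47 genes for such factors, 22 are in neither table, 13 are listed only for CPCCs and 1 (Olig3) only for mESCs. Another 8 were tested, of which 1 was called higher and 4 lower. Over all genes tested, 31.7% were called higher and 29.7% lower, the shares to set beside this and the list counts below. Of all genes, 15519 are listed for CPCCs and 13761 for mESCs, so a listing only for CPCCs was the more common case. The median log2 fold change was -1.40 over the 8 tested. With genes of a single table put at their bound against 3 counts per library, it was 1.66 over 22 genes. Such a gene can only enter on the side of the cell type that lists it. A median with bounds therefore cannot be set against the 0.03 over all genes tested. Neurod1, a neuronal and endocrine factor, stood at 0.309, 1.47 and 0.293 CPM in mESCs, against 10.7, 6.43 and 3.90 CPM for CPCCs (3.31 on the log2 scale, standard error 0.72, adjusted p = 0.00357, edgeR). Ascl2, a trophoblast and stem cell factor, fell from 8.47 ± 1.95 to 1.23 ± 0.551 CPM, a log2 fold change of -2.76. Olig1 (-2.64), Tcf15 (-2.56), a mesoderm factor also known from mESCs, and Olig2 (-1.81) fell as well. Among the genes listed only for CPCCs, the tendon factor Scx had 14.9, 30.4 and 31.1 CPM, at least 56.9-fold above the mESC floor, and the mesenchymal factors Twist1 (11.3, 10.1 and 5.50 CPM) and Twist2 (7.46, 7.52 and 5.73 CPM) were at least 20.0-fold and 15.4-fold higher. The cardiac factor Hand2, also listed only for CPCCs, reached 6.76 CPM in S04 but 1.09 and 1.95 CPM in S05 and S06. These 4 genes were named after their values were seen. Without S02 the number of bHLH partners called lower was 1, and without S01, S03 or S05 it was 2. The muscle factors Myod1, Myf5 and Myf6 and the cardiac mesoderm factor Mesp1 are in neither table. Myog, a muscle factor of the same family, is listed only for CPCCs, at 1.59, 0.849 and 2.06 CPM.

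Of 12 genes for HES, HEY and related bHLH repressors, which include Notch targets, 5 were tested, 3 rose and none fell. The median log2 fold change was 0.90 (2.36 over 7 genes with bounds, without Helt, whose bound was under 1-fold). Bhlhe41 and Bhlhe40, which did not pass, are among the related genes. Of the HES and HEY genes tested, Hes1 and Hes6 rose and Hey1 did not pass. Hes6 rose from 10.2 ± 2.82 to 52.4 ± 23.1 CPM and Bhlhe41 from 1.53 ± 1.09 to 10.2 ± 1.77 CPM (SD, n = 3 each). Hes1 rose from 22.4, 27.7 and 24.0 CPM to 41.6, 34.6 and 39.2 CPM, with no overlap. Of 12 genes for E protein cofactors, 9 were tested, 2 rose, 2 fell and 5 did not pass, with a median of 0.17 (0.19 over 12 genes with bounds). Lmo4, a LIM-only adaptor, rose by 2.82 on the log2 scale and Runx1t1, a corepressor of the ETO family, by 1.97, whereas the acetyltransferase gene Kat2b fell by 2.48 and Cbfa2t2, the ETO family member known from mESCs, fell by 1.16. Of 5 genes that act on ID protein stability, Usp1, whose product deubiquitinates ID proteins, fell from 145.7 ± 45.2 to 62.3 ± 12.2 CPM (log2 fold change -1.23), and Fzr1 (-0.86), an activator of the anaphase-promoting complex, and Cops5 (-0.62) fell too. The ubiquitin ligase gene Smurf2 rose by 0.89, and 1 gene did not pass.

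**Figure D4:**
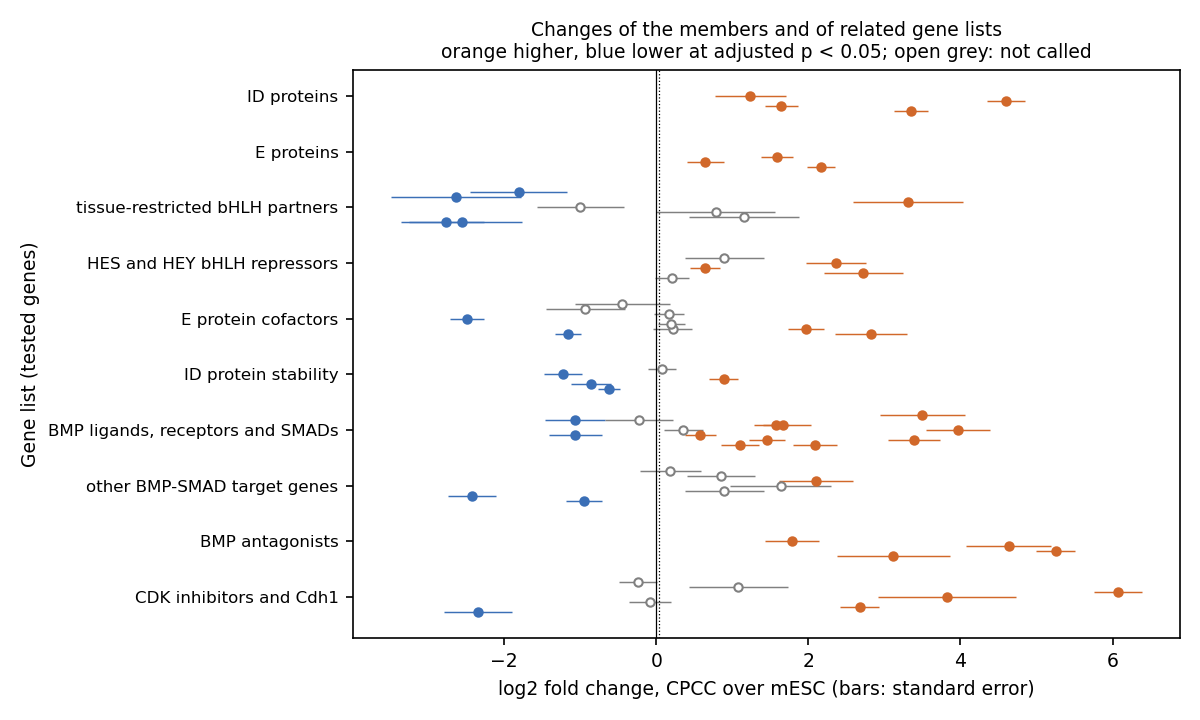
Log2 fold changes (CPCC over mESC, with standard errors) of the tested genes of the ID and E protein families and of 8 related lists; orange points were called higher, blue points lower and open grey points were not called, and the dotted line is the median of all genes tested (0.03). The 7 members all lie to the right, as do the 4 tested BMP antagonists, while the tested bHLH partners lie mostly to the left.

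Genes of the BMP pathway, which acts upstream of the ID genes, were mostly higher in CPCCs. Of 19 genes for BMP ligands, receptors and SMADs, 13 were tested, 9 rose, 2 fell and 2 did not pass. The median log2 fold change was 1.46 (1.66 over 17 genes with bounds, without Bmp5, whose bound was under 1-fold). Among the ligands, Bmp4 stood at 7.72, 4.27 and 2.34 CPM in mESCs, against 78.2, 96.6 and 49.3 CPM for CPCCs, a log2 fold change of 3.97 with a standard error of 0.43 (adjusted p = 6.68e-05, edgeR). Bmp8b, whose reads could be shared with its close paralog Bmp8a, rose by 3.50 on the log2 scale, and Bmp2, listed only for CPCCs at 29.7, 20.7 and 16.8 CPM, was at least 50.1-fold higher. Bmp2 and the other genes of a single table named in this paragraph were chosen after their values were seen. Of the receptors, Bmpr2 rose from 35.2 ± 9.80 to 369.7 ± 162.0 CPM (log2 fold change 3.39), with 556.3 CPM in S04 against 288.3 and 264.6 CPM in S05 and S06, and Acvr1 rose by 2.09. The 2 genes that fell were Bmp7 (-1.07) and Acvr2b (-1.07), of which 0 were called lower without S01 or S03 and 1 without any other single library. Antagonists rose too. All 4 tested of 9 were called, where 31.7% of all genes tested were called higher. They were Fst (5.25), Fstl3 (4.64), Chrd (3.12) and Twsg1 (1.78), with a median of 3.88 (4.02 over 9 genes with bounds). The other 5 are listed only for CPCCs, and the largest bound was that of Bmper, at least 103.8-fold. Of 9 other targets of BMP and SMAD proteins, 7 were tested, 1 rose, 2 fell and 4 did not pass, with a median of 0.85 (0.90 over 9 genes with bounds). Msx2, a homeobox gene, rose from 4.06 ± 1.98 to 17.5 ± 9.48 CPM (log2 fold change 2.10), Gata2 fell by 2.42 and the pseudoreceptor gene Bambi fell by 0.95. Hey1, Atoh8, Nog and Fst each stand in 2 of the lists.

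Of 8 genes known as targets of E proteins or acting with ID proteins in the cell cycle, the CDK inhibitors and Cdh1, 7 were tested, 3 rose, 1 fell and 3 did not pass, with a median log2 fold change of 1.08 (1.88 over 8 genes with bounds). Cdkn2b rose from 6.77 ± 0.769 to 457.2 ± 159.2 CPM (log2 fold change 6.07) and Cdkn1a, a gene that E2A activates and ID proteins are known to restrain, from 271.1 ± 17.9 to 1729 ± 608.5 CPM (2.67). Cdkn1c rose by 3.82, but its CPCC values were 65.1, 6.67 and 9.05 CPM, so that S04 set its mean. Cdh1, the gene for E-cadherin, which E proteins are known to repress, stood at 336.6, 376.4 and 588.8 CPM in mESCs, against 48.5, 53.5 and 154.3 CPM for CPCCs (-2.35 on the log2 scale, standard error 0.45, adjusted p = 0.00168, edgeR). The groups did not overlap, and S06 was the highest CPCC library.

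The symbols Tcf3 and Tcf4 are also used for proteins of the TCF/LEF family, which act with beta-catenin and are encoded by other genes. Tcf7l1, whose product is also called TCF3, stood at 135.5, 140.0 and 100.3 CPM in mESCs, against 31.5, 70.0 and 67.2 CPM for CPCCs (log2 fold change -1.16, adjusted p = 0.00836, edgeR). Tcf7l2, whose product is also called TCF4, stood at 29.0, 29.7 and 29.3 CPM in mESCs, against 109.4, 73.5 and 63.6 CPM for CPCCs (log2 fold change 1.49, adjusted p = 0.000512, edgeR). Tcf7l1 therefore moved in the opposite direction to Tcf3, and Tcf7l2 in the same direction as Tcf4. Of the 7 genes in this list of similar names, 1 rose, 3 fell and 3 did not pass, with a median of 0.33, and without S04 the number that rose was 3.

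The tested genes whose profiles over the 6 libraries were most like those of the members, by the root mean square difference of centred log2 CPM, were Selenon (0.13) and Serpinh1 (0.16) for Id3, Pid1 (0.15) and Map1b (0.16) for Id1, Gm3414 (0.05) and Sbf2 (0.08) for Id2, and Fam19a5 (0.18) and Hdgfl3 (0.21) for Id4. For the E protein genes they were Sh3bp2 (0.08) and Myh10 (0.10) for Tcf12, Hivep1 and Mark1 (0.07 each) for Tcf4, and Ralgps2 (0.07) and Rbm12 (0.08) for Tcf3. No member was among the nearest genes of another.

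Markers of other cell types moved together with the members, while 31.7% of all genes tested were called higher in CPCCs. The 9 mesenchymal markers summed to between 100.1 and 137.2 CPM in mESCs and between 14091 and 21590 CPM in CPCCs, and all 5 tested rose, led by Col1a1, Acta2 and Pdgfrb, with the other 4 listed only for CPCCs. The 8 neural markers summed to between 82.3 and 91.2 CPM in mESCs and between 904.0 and 968.3 CPM in CPCCs, and all 6 tested rose, with Pax6 and Dcx listed only for CPCCs. The 8 endoderm markers summed to between 1090 and 1219 CPM in mESCs and between 5893 and 9243 CPM in CPCCs, most of it Sparc. All 4 tested rose, while Afp and Ttr are in neither table. Sox17 was not tested and overlapped between the cell types, and Foxa2 stood at 5.96, 47.05 and 16.96 CPM in S04, S05 and S06. The part of these cell types in the levels of the ID and E protein genes was not tested. In the order S04, S05 and S06, the summed mesenchymal markers were at 21590, 20592 and 14091 CPM. In the same order the neural markers summed to 904.0, 968.3 and 939.8 CPM and the endoderm markers to 9243, 7673 and 5893 CPM. Nes, Tubb3 and Ncam1 made up most of the neural sum and did not rise from S04 to S06. Sox1 did, at 3.78, 23.4 and 50.9 CPM, and so did Dcx (9.34, 22.6 and 38.6 CPM), Pax6, Pou3f2 and Map2. These 8 neural genes were named after their values were seen. Among the members, Id3 and Id1 were highest in S05, Id2, Id4, Tcf3 and Tcf12 in S06 and Tcf4 in S04.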

How the data were processed

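Bulk RNA-seq of mESCs and CPCCs was analysed, 3 libraries of each. The authors deposited 2 tables of estimated counts of reads per gene, one for each cell type, without normalization or an allele split, made from 125-nt paired-end reads of SMART-Seq v4 cDNA. The submitters' processing notes name STAR 2.7 and mm10, while the counter, the annotation and the use of strand are not given in the sources used here. Depending on the library, 17.9% to 21.5% of values had a fraction. Each table lists only genes with at least 10 counts over its 3 libraries. Table names and labels gave the groups, and no column was left out.

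Counts were rounded. Genes in both tables passed edgeR's filterByExpr (530 removed) and were tested with edgeR 4.0.16 in R 4.3.3 (quasi-likelihood test, TMM, Benjamini-Hochberg adjustment). Where the study's methods name DESeq2, DESeq2 1.42.0 was run as an alternative. Standard errors were derived from the F statistic. Bounds for genes of a single table take 3 counts per library, and bounds and floors cover counting error only. Medians with bounds left out bounds under 1-fold and were not taken over all genes. The fits were tested on simulated data. Ratios used GENCODE M21 lengths, and that choice and the motifs were made after the data were seen. Figures were drawn with matplotlib 3.10.9.

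The members and lists were chosen with earlier results of these data known. Named genes are the 7 members, up to 4 called genes of each list by size of change (3 of a marker list), Tcf7l1 and Tcf7l2, and the 2 nearest profiles of each member. Olig2, Bmp7, Acvr2b, Bhlhe40, Helt, Hey1, Myog, Sox17 and the genes named as missing from a table or marked in the text fall outside that rule. They were named after their values were seen. Alternatives were other normalizations, library sizes and low-count filters, missing genes at 0 or 3 counts, each library left out, and other scales for the ratio. Allele-specific, single-cell and chromatin data were not analysed here.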

Additional observations from a re-analysis of the deposited data

How the results depend on the processing

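Id1, Id2, Id3, Tcf4 and Tcf12 kept their direction and call in all 14 alternative fits, with leave-one-out ranges of 3.27 to 3.44, 1.48 to 1.79, 4.45 to 4.84, 1.44 to 1.75 and 2.10 to 2.28 (log2). Id4 and Tcf3 kept their direction only: with missing genes set to 3 counts Id4 had 1.17 (adjusted p = 0.0579) and Tcf3 0.57 (adjusted p = 0.0590), library totals without TMM gave Tcf3 0.65 (adjusted p = 0.0533), and leaving out a library gave Id4 0.93 to 1.91 and Tcf3 0.54 to 0.84, with both calls lost without S01, S02 (1.07 and 0.57), S05 (1.37 and 0.63) or S06 (0.96 and 0.58). These adjusted p-values are from edgeR with Benjamini-Hochberg adjustment, and the cause was not tested. Over all genes, DESeq2 called 7896, of which 7645 were shared with edgeR in the same direction, and leaving out a library gave 6536 to 7895 calls, 3442 to 4066 higher and 3070 to 3829 lower. The other settings gave 6560 to 9011 calls.

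The difference in the log2 ratio moved to 1.66 with summed CPM, 0.54 without Id3, 2.62 without Id2 and 2.44 without Tcf12, and lay between 1.91 and 2.21 with 1 library left out. Of 28 counts of calls in lists, 10 moved by more than 1.5 times. Setting missing genes to 0 or to 3 counts adds genes to the test. Those called higher were then 5 bHLH partners, 5 HES, HEY and related genes, 3 other BMP targets, 9 antagonists, 7 cardiac and 9 mesenchymal markers. With at least 10 counts in every library, which removes genes, they were 0 bHLH partners, 2 other BMP targets, 2 antagonists, 2 cardiac, 3 mesenchymal and 3 neural markers, and 0 bHLH partners were lower. DESeq2 called 2 other BMP targets higher, and without TMM 1 BMP pathway gene was lower. With 1 library left out, 1 to 3 bHLH partners and 0 to 1 BMP pathway genes were lower and 1 to 3 genes with TCF names higher. No paired analysis was possible because the columns carry no replicate numbers. At this depth, genes under about 3 counts per library cannot be compared.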
